A study of Saccharomyces cerevisiae with 8 samples.

Results

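The strain by glucose interaction is, for each gene, the log2 response of stb3-null yeast to 10 min of glucose minus the log2 response of wild-type yeast. A negative value means that the stb3-null response was the lower one, and a positive value that it was the higher one. It was computed from all 8 arrays for the 5656 annotated genes read by a probe set that names no other gene, out of 9275 probe sets on the array. Of these genes, 5343 were tested. Their mean signal, taken before the logarithm, was at least 5.80 on the log2 scale. The 4 groups were stb3-null cells 10 min after addition of 2% glucose, stb3-null cells without it, BY4742 cells 10 min after the same glucose, and BY4742 cells without it. All of them had first grown for 3 days in YPD, a rich medium, and each group held 2 arrays, called replicates A and B. BY4742 is a haploid laboratory strain of budding yeast of mating type alpha and served as wild type. The sources used here do not say whether the stb3-null strain was a single clone or whether replicates were separate cultures, so the p-values cover only how far these samples lay apart, which may be technical.

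Stb3 is known to recognise the ribosomal RNA processing element, a short sequence upstream of many genes for ribosome assembly, and to work with the Sin3 repressor. Glucose is known to switch starved yeast towards growth through protein kinase A and the TOR kinase: genes that build ribosomes are turned up, and genes for burning fat, storing glycogen and recycling cell material are turned down. In the nucleolus, small nucleolar ribonucleoproteins (snoRNPs) modify the precursor ribosomal RNA, the small-subunit processome cuts and folds one part of it, and a further set of assembly factors builds the large subunit.

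STB3 (YDR169C) itself had log2 signals of 2.50 and 2.82 after glucose and 3.30 and 2.90 at 3 days on the stb3-null arrays, against 8.42 and 7.62 after glucose and 9.23 and 8.48 at 3 days on the wild-type arrays. Every stb3-null value lay below the filter level of 5.80 and every wild-type value above it. The strain difference passed limma's test after glucose (adjusted p = 2.17e-04) and at 3 days (adjusted p = 1.13e-04). The adjacent genes CDC37, for a kinase chaperone, and SEC7, for a factor of Golgi transport, had interactions of -0.18 (adjusted p = 0.918) and -0.77 (adjusted p = 0.727). Over the 8 arrays the alpha-cell genes MF(ALPHA)1 and MF(ALPHA)2 read between 11.09 and 13.20 and between 6.88 and 8.45. The a-cell genes BAR1 and STE2 read between 5.19 and 5.63 and between 5.15 and 6.01, but the a-factor genes MFA1 and MFA2 read between 6.99 and 7.81 and between 6.55 and 7.13, above the filter level.

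The wild-type replicates lay further apart than the stb3-null replicates. The SD over genes of the difference between A and B was 0.278 in stb3-null after glucose and 0.261 in stb3-null at 3 days, against 0.548 in wild type after glucose and 0.577 in wild type at 3 days. More than 1 log2 unit separated A from B for 28 and 5 genes in stb3-null and for 367 and 410 genes in wild type, after glucose and at 3 days in each case. Both wild-type B arrays stood apart on the second principal component, at -16.2 after glucose and -25.2 at 3 days, where the other 6 arrays lay between 5.83 and 9.25. Of the 96 genes followed through all alternatives, 36 had an interaction that moved by over 1.5 times when both A or both B arrays of wild type were left out, and 3 changed sign. Of the 40 list medians, 30 moved by over 1.5 times and 13 changed sign.

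Across all genes the interactions spread less widely than the responses. Their median was 0.02, the middle 50% of genes lay between -0.29 and 0.29, and the median SE was 0.350. The middle 50% of responses lay between -0.28 and 0.80 in stb3-null and between -0.425 and 0.905 in wild type. Their median SE was 0.247, smaller than that of the interactions, so counts of called genes do not compare sizes. At an adjusted p below 0.05, 2113 genes changed after glucose in stb3-null (39.5% of 5343) and 2668 in wild type (49.9%). With other scalings of the arrays the median response of all genes lay between -0.25 and 0.26 in stb3-null and between -0.27 and 0.22 in wild type, whereas the median interaction moved by less than 0.1. limma called 0 of 5343 interactions at an adjusted p below 0.05 (0%). At an unadjusted p below 0.05 there were 370 (6.92%), of which 234 were lower in stb3-null (4.38%) and 136 higher (2.55%). A second description used the 4 pairings within each strain, each glucose array minus each 3-day array: the stb3-null pairings lay wholly below the wild-type pairings for 573 genes (10.7%) and wholly above them for 562 (10.5%). Interactions below -1 were found for 141 genes and above 1 for 60, from -2.02 for ATC1 to 1.83 for PXA1. The count of called genes turned on the wild-type replicates: it was 838 without both A arrays of wild type (523 lower, 315 higher) and 33 without both B arrays (14 lower, 19 higher), fits in which the lone wild-type array is assumed to vary like the other groups. At an unadjusted p below 0.05 the lower and higher counts were 918 and 750 without both wild-type A arrays, and 13 and 11 without both stb3-null A arrays.

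**Figure D1:**
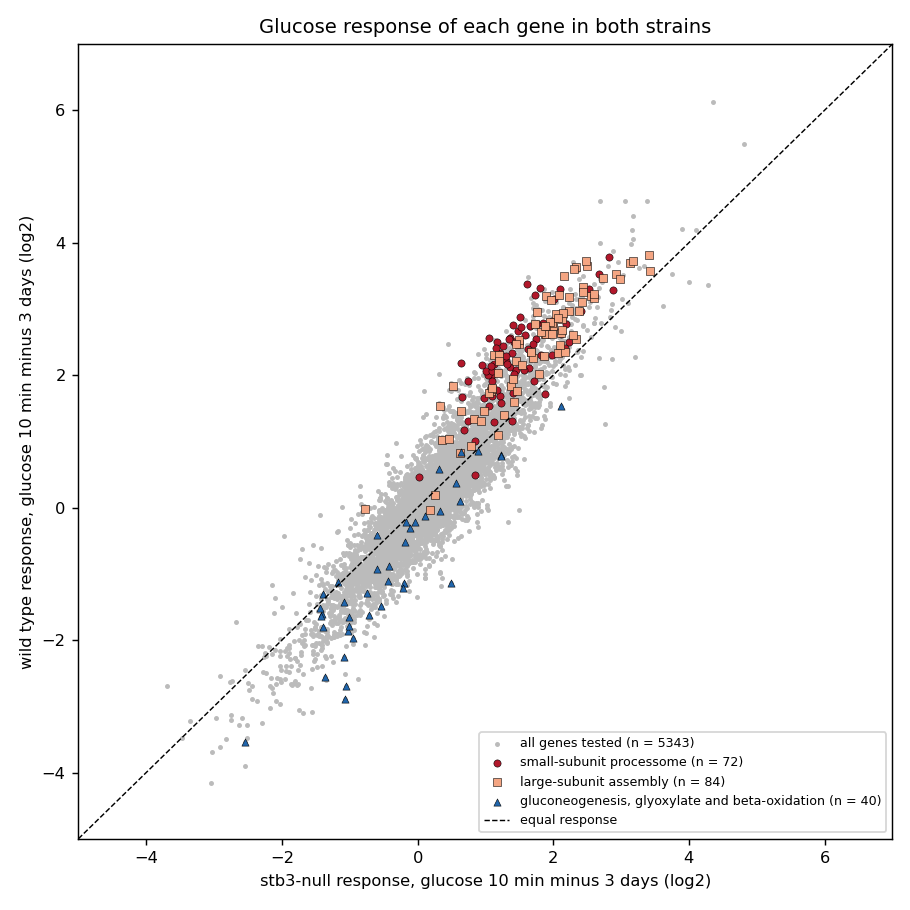
Glucose response of each of the 5343 tested genes, as the mean log2 signal 10 min after glucose minus the mean at 3 days, in stb3-null (horizontal axis) and wild type (vertical axis), each a mean of 2 arrays per condition. The dashed line marks equal responses; coloured points mark gene lists, and most ribosome assembly genes lie above the line because their median response was 1.40 (small-subunit processome) and 1.88 (large-subunit assembly) in stb3-null, against 2.31 and 2.57 in wild type.

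Genes of the small-subunit processome rose in both strains and had the most negative median interaction of the 40 lists. Of 72 tested genes, 68 rose after glucose in stb3-null, where 28.0% of all genes rose, and 70 rose in wild type, where 32.3% did. The median response was 1.40 in stb3-null and 2.31 in wild type. The interaction was negative for 69 genes and positive for 3, with a median of -0.85 against 0.02 for all genes. Of all 5343 genes tested, 2582 had a negative interaction. At an unadjusted p below 0.05, 41 were lower and 0 higher, against 4.38% and 2.55% of all genes. The 4 stb3-null pairings lay below the 4 wild-type pairings for 46 genes and above them for 0, against 10.7% and 10.5% of all genes. None of the 72 was called. Without empirical Bayes, which shares information on the spread between genes, the 41 at an unadjusted p below 0.05 became 22. The 41 became 24 without wild type glucose replicate B, 24 without stb3-null 3 days replicate B and 20 without stb3-null glucose replicate A, and it became 6 without both stb3-null A arrays and 22 without both stb3-null B arrays. Each array read RNA from many cells, so a smaller share of responding cells and a smaller response per cell cannot be told apart.

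The strains lay apart in both conditions, in opposite directions. The median difference of stb3-null minus wild type was -0.39 after glucose, with 66 of 72 genes lower in stb3-null, and 0.51 at 3 days, with 63 of 72 genes higher in stb3-null. Of all 5343 genes tested, 2429 were lower in stb3-null after glucose and 2905 higher at 3 days. The median log2 signal of the list was 8.96 and 9.18 on the stb3-null arrays after glucose and 7.61 and 7.67 on those at 3 days, against 9.35 and 9.60 on the wild-type arrays after glucose and 7.14 and 7.29 on those at 3 days. Neither pair of groups overlapped. In the strain comparisons limma called only STB3 after glucose (1 gene, 0.0187%) and STB3 and ATC1 at 3 days (2 genes, 0.0374%), so no processome gene passed on its own in either. The median interaction was -0.96 without both wild-type A arrays and -0.73 without both wild-type B arrays.

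**Figure D2:**
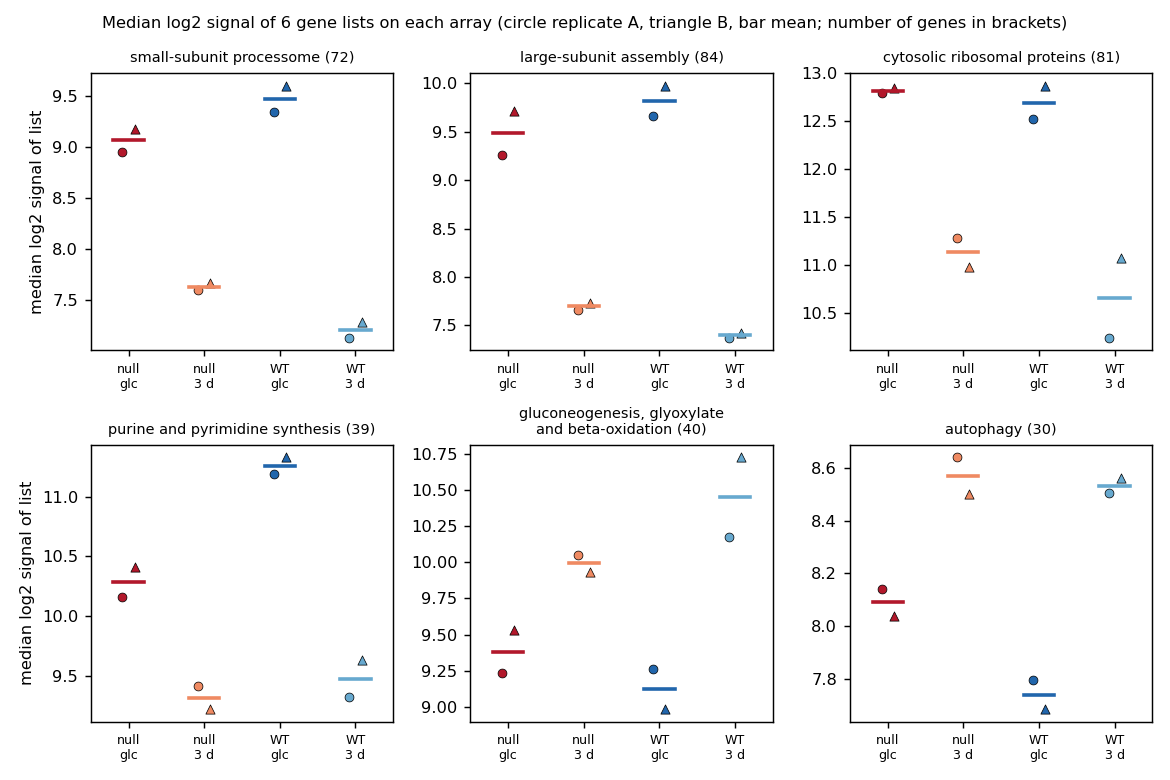
Median log2 signal of the tested genes of 6 lists on each of the 8 arrays (circles replicate A, triangles replicate B, bars the mean of both). For the small-subunit processome the stb3-null medians (8.96 and 9.18 after glucose, 7.61 and 7.67 at 3 days) lie inside the range spanned by the wild-type medians (9.35 and 9.60 after glucose, 7.14 and 7.29 at 3 days), and for cytosolic ribosomal proteins the wild-type 3-day arrays lie apart, at 10.24 and 11.07.

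NOP14 (YDL148C), which encodes a nucleolar assembly factor of the small subunit, had log2 signals of 8.10 and 8.03 after glucose and 7.38 and 7.48 at 3 days in stb3-null, against 8.23 and 8.42 after glucose and 6.04 and 6.25 at 3 days in wild type. The strains lay close after glucose and were separated at 3 days, where both stb3-null values exceeded both wild-type values by more than 1. NOP14 rose by 0.64 in stb3-null (adjusted p = 0.0223) and by 2.18 in wild type (adjusted p = 2.87e-05), an interaction of -1.54 (95% interval -2.13 to -0.96, unadjusted p = 1.74e-04, adjusted p = 0.465).

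UTP15 (YMR093W), for a processome subunit also needed for transcription of ribosomal DNA, had signals of 9.22 and 9.51 after glucose and 7.61 and 7.65 at 3 days in stb3-null, against 9.45 and 9.74 and 6.38 and 6.40 in wild type. Here too the wider gap between strains was at 3 days. Its rise was 1.74 in stb3-null and 3.21 in wild type, and the interaction was -1.47 (95% interval -2.10 to -0.84, adjusted p = 0.601). With a 20% pseudocount the UTP15 interaction was -0.86.

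UTP8 (YGR128C), a partner of Utp15, differed between strains on both sides of the glucose addition. Its signals were 8.64 and 9.02 after glucose and 6.73 and 6.73 at 3 days in stb3-null, against 9.37 and 9.53 and 6.05 and 6.25 in wild type, an interaction of -1.20 (adjusted p = 0.644). With a 20% pseudocount the UTP8 interaction was -0.77. NOC4 (YPR144C), which binds Nop14, gave -1.33, and FAL1 (YDR021W), an RNA helicase of small-subunit assembly, gave -1.15. For FAL1 the wild-type 3-day signals of 5.73 and 5.71 lay just below the filter level, so its wild-type rise is measured from a dim value. RRP7, another assembly factor, had the most positive value of the list at 0.35 (95% interval -1.08 to 1.79, -0.27 without both wild-type A arrays, 0.97 without both B arrays), and its wild-type glucose arrays read 8.16 and 9.74.

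**Figure D3:**
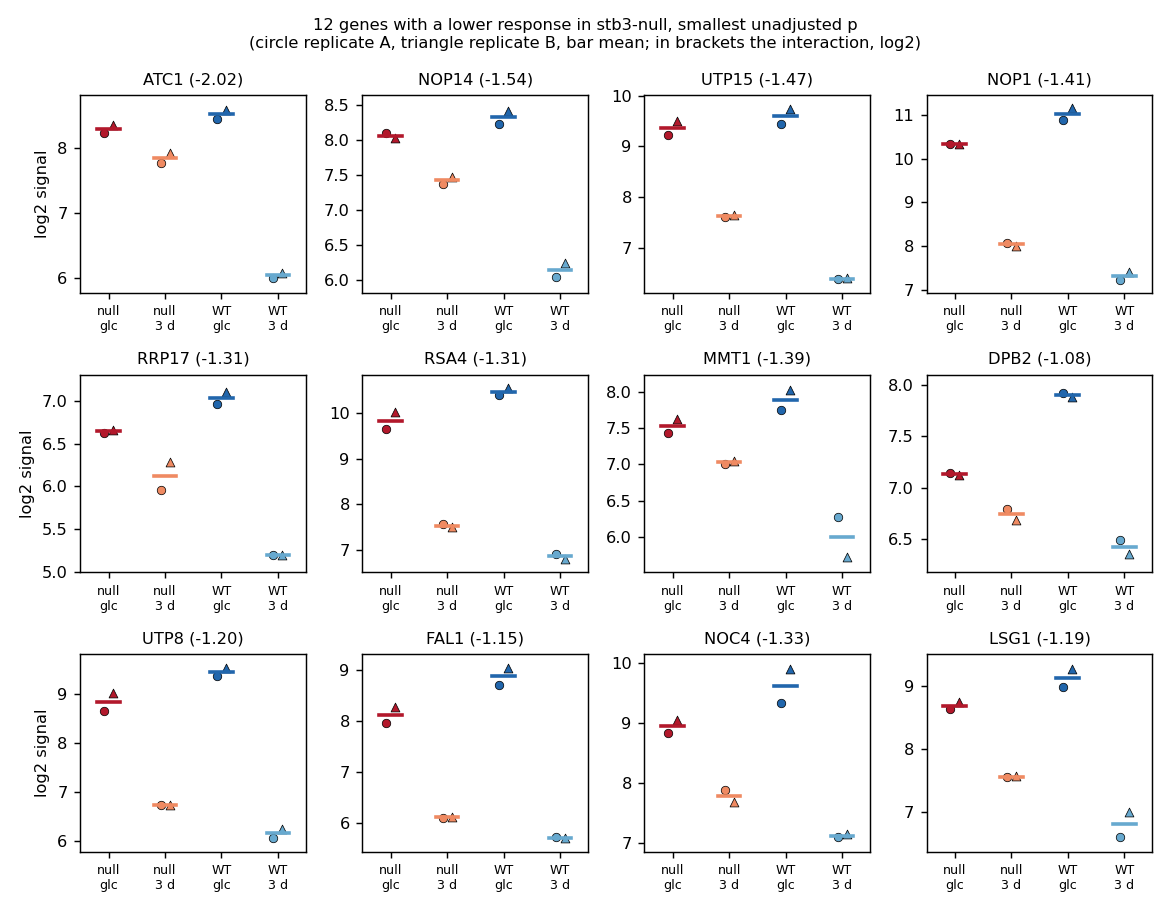
Log2 signal on each array of the 12 genes with the smallest unadjusted p among those whose stb3-null response pairings lay wholly below the wild-type pairings (circles replicate A, triangles replicate B, bars the mean of both, vertical scales differ). In ATC1, NOP14 and UTP15 the strains differ mainly at 3 days, and in DPB2 and FAL1 mainly after glucose.

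Assembly factors of the large subunit behaved alike. Of 84 tested genes, 75 rose in stb3-null and 81 in wild type, where 28.0% and 32.3% of all genes rose. Their median responses were 1.88 and 2.57. The interaction was negative for 81 of the 84, with a median of -0.69. At an unadjusted p below 0.05, 33 were lower and 0 higher, against 4.38% and 2.55% of all genes. The 33 became 12 without stb3-null glucose replicate A and 2 without both stb3-null A arrays, its lowest values when arrays were left out, and 54 without both wild-type A arrays, its highest. Pairings lay apart downwards for 49 genes and upwards for 0, against 10.7% and 10.5% of all genes. The median strain difference was -0.34 after glucose, with 80 of 84 genes lower in stb3-null, and 0.37 at 3 days, with 69 of 84 higher in stb3-null.

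RSA4 (YCR072C), which helps remodel the precursor of the large subunit, had signals of 9.64 and 10.02 after glucose and 7.56 and 7.50 at 3 days in stb3-null, against 10.39 and 10.55 and 6.92 and 6.80 in wild type. No stb3-null value overlapped a wild-type value of the same condition, and the stb3-null cells were lower after glucose and higher at 3 days. RSA4 rose by 2.30 in stb3-null and 3.61 in wild type, with an interaction of -1.31 (95% interval -1.97 to -0.65, adjusted p = 0.644). LSG1 (YGL099W), a GTPase that acts on the large subunit in the cytoplasm, gave -1.19 with rises of 1.12 in stb3-null and 2.31 in wild type. RRP17 (YDR412W), a nuclease that trims the precursor RNA, gave -1.31, and its wild-type 3-day signals of 5.20 and 5.19 lay below the filter level.

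Core snoRNP proteins had a median interaction of -0.76 over 19 tested genes, with 8 lower and 0 higher at an unadjusted p below 0.05 (2 lower without both stb3-null A arrays, 11 without both wild-type A arrays). Of all genes, 4.38% were lower and 2.55% higher at that level in the main fit. Without empirical Bayes 5 of the 19 were lower. NOP1 (YDL014W) encodes the methyltransferase of the box C/D class known in animals as fibrillarin. In stb3-null it had signals of 10.34 and 10.33 after glucose and 8.07 and 8.01 at 3 days. In wild type the signals were 10.89 and 11.15 after glucose and 7.23 and 7.40 at 3 days. Its signal lay about as far below wild type after glucose as above wild type at 3 days, with strain differences of -0.69 and 0.72. The interaction was -1.41 (95% interval -2.07 to -0.75, adjusted p = 0.644). CBF5 (YLR175W), the pseudouridine synthase of the box H/ACA class, gave -1.33, with a rise of 1.53 in stb3-null and 2.87 in wild type.

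RNA polymerases I and III, which make ribosomal and transfer RNA, had a median interaction of -0.38 over 42 genes. The median was -0.18 without both stb3-null A arrays and -0.52 without both stb3-null B arrays. At an unadjusted p below 0.05, 10 were lower and 0 higher, against 4.38% and 2.55% of all genes. Among polymerase I subunits, RPA49 had signals of 10.53 and 10.73 after glucose and 8.42 and 8.12 at 3 days in stb3-null, against 10.75 and 11.01 and 7.16 and 7.43 in wild type. The strain difference was -0.25 after glucose and 0.97 at 3 days, and the interaction was -1.23 (adjusted p = 0.644). RPA190, the largest subunit, gave -1.17, and all 7 of its probe sets gave a negative value, from -1.36 to -0.14. The polymerase I initiation factor gene RRN10 and the polymerase III factor gene TFC7 lay on the other side, at 0.39 (0.54 without both wild-type A arrays, 0.24 without both B arrays) and 0.35, with intervals that include 0.

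Genes for the ribosomal proteins themselves differed less and depended on single arrays. Of the 81 cytosolic genes measured apart from others, 75 rose in stb3-null (median response 1.68) and 79 in wild type (1.97). The median interaction was -0.35. Pairings lay apart downwards for 8 of the 81 genes and upwards for 1, against 10.7% and 10.5% of all genes. At an unadjusted p below 0.05, 5 of the 81 were lower and 0 higher, against 4.38% and 2.55% of all genes, so these counts lay near those shares. The 5 became 30 without wild type 3 days replicate B and 0 without both stb3-null A arrays. The median was 0.09 without wild type 3 days replicate A and -0.81 without wild type 3 days replicate B, since the median log2 signal of the list was 10.24 on the first of these arrays and 11.07 on the second, against 11.28 and 10.98 in stb3-null at 3 days. Of the members named by the rule, RPS14B gave -1.13 and RPS29B -1.04, while RPL15B gave 0.41. Many ribosomal protein genes have near-identical copies elsewhere in the genome, and how far these probe sets separate the copies is uncertain.

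Translation factors had a median interaction of -0.58 over 33 genes. At an unadjusted p below 0.05, 12 were lower and 0 higher, against 4.38% and 2.55% of all genes. PRT1, for a core subunit of initiation factor eIF3, had signals of 9.83 and 9.95 after glucose and 9.17 and 9.10 at 3 days in stb3-null, against 10.17 and 10.36 and 8.38 and 8.44 in wild type. Its stb3-null signals lay inside the wild-type range at both ends, and it rose by 0.76 in stb3-null and 1.85 in wild type (interaction -1.10, adjusted p = 0.644). NIP1, another eIF3 subunit, gave -1.14. All 22 tRNA synthetase genes had a negative value, with a median of -0.55 and 3 below an unadjusted p of 0.05, led by the lysyl enzyme KRS1 at -0.98 (-1.46 without both wild-type A arrays, -0.52 without both B arrays) and the cysteinyl enzyme CRS1 at -0.74 (-1.04 without both wild-type A arrays, -0.44 without both B arrays).

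**Figure D4:**
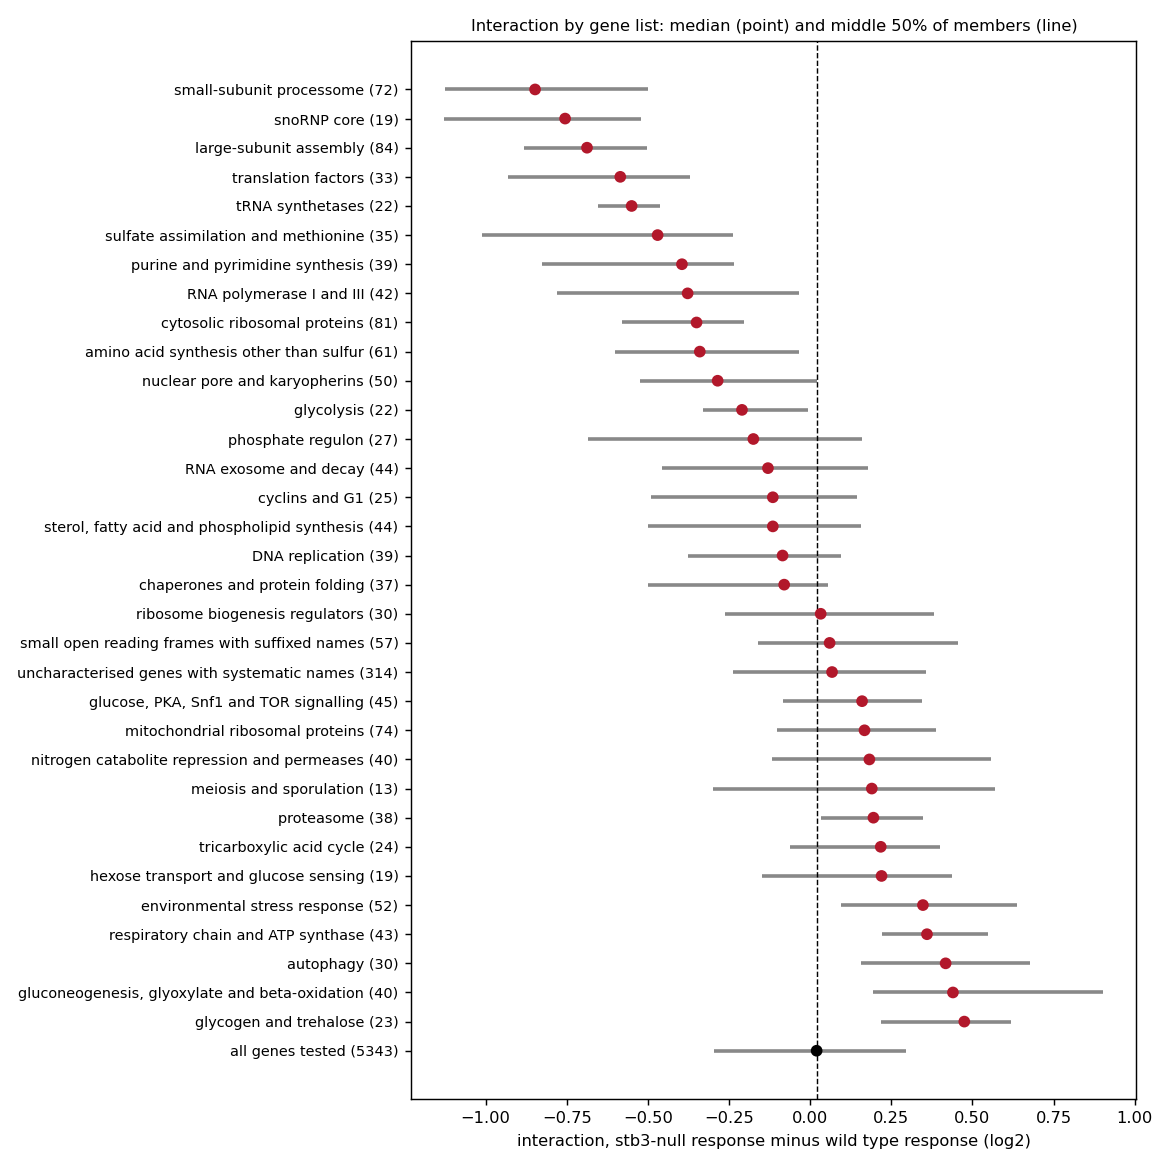
Interaction by gene list, as the median over the tested members (point) and the middle 50% of members (line), in log2 units, with the number of tested genes in brackets, for lists of at least 12 tested genes other than the list of known glucose responders. The dashed line marks the median of all genes tested, 0.02; ribosome assembly lists lie lowest, at -0.85, -0.76 and -0.69, and lists for fat use, autophagy and storage sugars lie highest, between 0.42 and 0.48.

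Biosynthetic lists were also on the negative side, with median strain differences near 0 at 3 days. Purine and pyrimidine synthesis had a median interaction of -0.40 over 39 genes. The list was at -0.195 without both stb3-null A arrays and -0.68 without both stb3-null B arrays. Its median strain differences were -0.47 after glucose and 0.00 at 3 days. At an unadjusted p below 0.05, 7 were lower and 0 higher, against 4.38% and 2.55% of all genes. Sulfate assimilation with methionine synthesis had a median of -0.47 over 35 genes (5 lower, 1 higher), with -0.53 after glucose and -0.02 at 3 days. That list was at -1.0 without both wild-type A arrays and -0.03 without both wild-type B arrays. The other amino acid synthesis genes had a median of -0.34 over 61 genes (9 lower, 0 higher), which was -0.64 without wild type glucose replicate A and -0.13 without wild type glucose replicate B.

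URA7, which encodes CTP synthase, had signals of 10.41 and 10.77 after glucose and 7.47 and 7.39 at 3 days in stb3-null, against 11.19 and 11.45 and 7.11 and 7.14 in wild type. It rose in both strains, and stb3-null was lower on both glucose arrays (interaction -1.03, 95% interval -1.73 to -0.34, adjusted p = 0.656). PRS4, for a phosphoribosyl pyrophosphate synthetase, gave -1.23.

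MET3, for the ATP sulfurylase that starts sulfate assimilation, had signals of 9.29 and 9.55 after glucose and 6.80 and 6.67 at 3 days in stb3-null, against 10.41 and 11.22 and 6.86 and 6.78 in wild type. The strains were level at 3 days and did not overlap after glucose, and the interaction was -1.31 (adjusted p = 0.644, -1.75 without both wild-type A arrays, -0.86 without both B arrays). MET5, of sulfite reductase, gave -1.31, whereas MET4, for the activator of these genes, gave 1.02 (0.65 without both wild-type A arrays, 1.41 without both B arrays). THR1, for homoserine kinase, gave -1.25 (-1.75 without both wild-type A arrays, -0.75 without both B arrays) with rises in both strains, and SER3, for the first enzyme of serine synthesis, gave -1.33 (-1.80 without both wild-type A arrays, -0.87 without both B arrays) with a fall of 1.44 in stb3-null that passed and a change of -0.10 in wild type that did not (adjusted p = 0.776).

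HXT1, a transporter of low affinity for glucose, had the largest wild-type response of all genes tested, 6.12, and a response of 4.36 in stb3-null. Its signals were 10.95 and 10.44 after glucose and 5.86 and 6.81 at 3 days in stb3-null, against 12.38 and 12.08 and 6.26 and 5.96 in wild type. Both stb3-null glucose arrays lay more than 1 below both wild-type glucose arrays, and the 3-day arrays overlapped. The interaction was -1.76 (95% interval -2.79 to -0.73, unadjusted p = 0.00354, adjusted p = 0.644). It was -2.49 without both stb3-null A arrays and -1.03 without both stb3-null B arrays. Over 19 tested genes of hexose transport and glucose sensing the median was 0.22. That median was 0.57 without wild type glucose replicate A and -0.05 without wild type glucose replicate B. At an unadjusted p below 0.05, 1 of the 19 was lower and 1 higher, against 4.38% and 2.55% of all genes. SNF3, a sensor of low glucose, fell in both strains and gave 0.73 (1.09 without both wild-type A arrays, 0.38 without both B arrays), and MTH1, a corepressor of transporter genes, gave 1.13 (2.04 without both wild-type A arrays, 0.21 without both B arrays). HXT3, another low-affinity transporter, gave 0.60 (95% interval -0.85 to 2.05, 1.64 without both wild-type A arrays, -0.43 without both B arrays) and rose in both strains by more than 3.

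Genes for fat use, autophagy and storage sugars lay on the positive side, which for most of them means a smaller fall in stb3-null. In the list for beta-oxidation, the glyoxylate cycle and gluconeogenesis, 15 of 40 members fell in stb3-null, where 11.6% of all genes fell, and 23 fell in wild type, where 17.6% did. The median response was -0.57 in stb3-null and -1.14 in wild type. The median interaction was 0.44. At an unadjusted p below 0.05, 7 were higher and 0 lower, against 2.55% and 4.38% of all genes. Without empirical Bayes 4 were higher. The 7 became 21 without both wild-type A arrays and 1 without both stb3-null B arrays. The median was 0.80 without both wild-type A arrays and 0.07 without both wild-type B arrays. The median strain difference was 0.32 after glucose and -0.18 at 3 days.

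PXA1 (YPL147W) and PXA2 (YKL188C) encode the subunits of the transporter that carries fatty acids into peroxisomes. PXA1 had signals of 8.0 and 7.76 after glucose and 8.99 and 8.90 at 3 days in stb3-null, against 7.09 and 6.82 and 9.24 and 10.46 in wild type. The stb3-null cells were higher after glucose and lower at 3 days, where the wild-type arrays lay more than 1 apart. PXA1 fell by 1.06 in stb3-null and fell by 2.90 in wild type, with an interaction of 1.83 (95% interval 0.75 to 2.91, adjusted p = 0.644), which was 2.58 without both wild-type A arrays and 1.08 without both wild-type B arrays.

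PXA2 read 7.58 and 7.58 after glucose and 8.80 and 8.54 at 3 days in stb3-null, against 6.78 and 6.22 and 8.61 and 8.89 in wild type. The strains overlapped at 3 days and lay apart after glucose, and the interaction was 1.16 (adjusted p = 0.644, 1.58 without both wild-type A arrays, 0.74 without both B arrays). FAT3 (YKL187C), whose locus tag adjoins that of PXA2, encodes a protein of fatty acid uptake. Its signals were 8.11 and 7.90 after glucose and 9.20 and 8.94 at 3 days in stb3-null, against 7.35 and 6.50 and 9.60 and 9.26 in wild type, and it gave 1.44, with stb3-null higher after glucose and lower at 3 days. CTA1, the peroxisomal catalase gene, fell in both strains and gave 1.0 (95% interval -0.09 to 2.10, 1.87 without both wild-type A arrays, 0.14 without both B arrays).

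**Figure D5:**
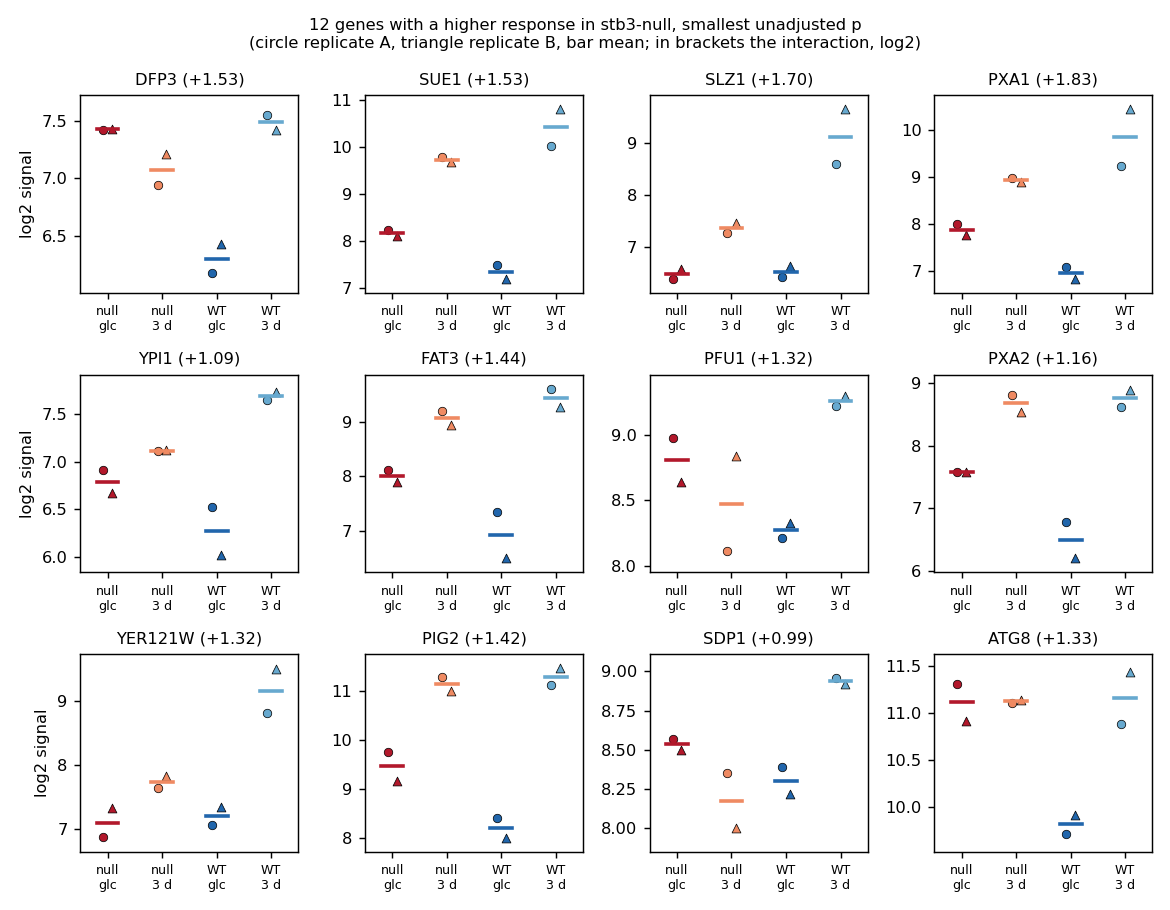
Log2 signal on each array of the 12 genes with the smallest unadjusted p among those whose stb3-null response pairings lay wholly above the wild-type pairings (circles replicate A, triangles replicate B, bars the mean of both, vertical scales differ). ATG8, PXA2 and PIG2 differ between strains mainly after glucose, whereas SLZ1 and YER121W differ mainly at 3 days, where the wild-type replicates of SLZ1 read 8.58 and 9.64.

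Autophagy genes had a median interaction of 0.42 over 30 genes. The median was 0.62 without wild type 3 days replicate A and 0.20 without wild type 3 days replicate B. At an unadjusted p below 0.05, 5 were higher and 0 lower, against 2.55% and 4.38% of all genes. After glucose 11 fell in stb3-null and 17 in wild type, where 11.6% and 17.6% of all genes fell. ATG8 (YBL078C), for the ubiquitin-like protein of autophagosome membranes, had signals of 11.31 and 10.92 after glucose and 11.11 and 11.14 at 3 days in stb3-null, against 9.71 and 9.92 and 10.88 and 11.44 in wild type. The wild-type glucose arrays were the low ones, and the other 3 groups overlapped. ATG8 fell by 1.34 in wild type (adjusted p = 0.00314) and changed by -0.01 in stb3-null (adjusted p = 0.98), and the interaction was 1.33 (95% interval 0.46 to 2.21, adjusted p = 0.651). ATG9, a membrane protein that seeds autophagosomes, fell in both strains and gave 0.84.

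Glycogen and trehalose genes had a median interaction of 0.48 over 23 genes, but leaving out replicate B of wild type after glucose gave -0.075. After glucose 8 of the 23 fell in stb3-null and 15 in wild type, where 11.6% and 17.6% of all genes fell. PIG2 (YIL045W), which encodes a partner of glycogen synthase and of the type 1 phosphatase, had signals of 9.76 and 9.17 after glucose and 11.29 and 11.01 at 3 days in stb3-null, against 8.40 and 7.99 and 11.12 and 11.48 in wild type. The strains overlapped at 3 days, and stb3-null was higher on both glucose arrays (interaction 1.42, 95% interval 0.51 to 2.33, adjusted p = 0.644). GIP2, another partner of that phosphatase, gave 0.83, and YPI1, one of its inhibitors, gave 1.09.

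The stress-response list had a median of 0.35 over 52 genes and the respiratory chain with ATP synthase a median of 0.36 over 43, and these were -0.14 and -0.11 without both wild-type B arrays. At an unadjusted p below 0.05, 1 stress gene was higher and 0 lower, against 2.55% and 4.38% of all genes. No respiratory gene reached that level in either direction. XBP1, a repressor made in starved cells, fell in both strains and gave 0.95 (1.40 without both wild-type A arrays, 0.51 without both B arrays). SPG5, a proteasome factor of stationary phase, gave 0.98 (1.69 without both wild-type A arrays, 0.27 without both B arrays). Of the 43 respiratory genes, 13 rose in stb3-null, where 28.0% of all genes rose, and 4 in wild type, where 32.3% did, with QCR6, of complex III, at 0.72 (1.03 without both wild-type A arrays, 0.41 without both B arrays) and COX7, of complex IV, at 0.61, both with intervals that include 0. SUE1 (YPR151C), known for removal of unstable cytochrome c, fell by 1.56 in stb3-null and fell by 3.09 in wild type, and gave 1.53 (2.08 without both wild-type A arrays, 0.98 without both B arrays).

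ATC1 (YDR184C), which encodes a nuclear protein linked to cation stress, had the smallest p of all interactions. Its signals were 8.23 and 8.36 after glucose and 7.77 and 7.92 at 3 days in stb3-null, against 8.45 and 8.58 and 6.0 and 6.08 in wild type. After glucose the stb3-null arrays lay slightly below the wild-type arrays, and at 3 days they lay more than 1 above them. It rose by 2.48 in wild type (adjusted p = 1.50e-05) and changed by 0.45 in stb3-null (adjusted p = 0.0717), so that the interaction was -2.02 (SE 0.25, 95% interval -2.59 to -1.46, unadjusted p = 1.59e-05, adjusted p = 0.0849). The strain difference at 3 days was 1.80 and passed (adjusted p = 0.00577). The ATC1 interaction was -1.985 without wild type 3 days replicate A, -2.05 without both wild-type A arrays and -2.0 without both wild-type B arrays. It passed in these fits, which leave a wild-type group with 1 array. Without both A or both B arrays the spread was estimated from the stb3-null replicates alone, which lay closer together. Under the other alternatives its adjusted p lay between 0.0637 and 1, the highest without both stb3-null A or both stb3-null B arrays, while the value itself lay between -2.17 and -1.11. ATC1 lies on chromosome IV, 19 protein-coding genes from STB3 in the RefSeq order.

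A few further genes with pairings that lay apart belong to no list described so far. DPB2, for a subunit of DNA polymerase epsilon, read 7.15 and 7.13 after glucose and 6.80 and 6.69 at 3 days in stb3-null, against 7.92 and 7.88 and 6.49 and 6.36 in wild type, and gave -1.08. The strains were furthest apart after glucose. MMT1, for a mitochondrial metal transporter, gave -1.39, with wild-type 3-day signals of 6.27 and 5.73, the second of which lay below the filter level. SLZ1, a gene of the meiotic RNA methylation complex, gave 1.70, and the uncharacterised gene YER121W gave 1.32, both with stb3-null lower at 3 days and overlapping strains after glucose. PFU1, for an F-box protein, gave 1.32.

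DFP3 (YCR007C), of the DUP240 family of membrane proteins, had positive pairings in stb3-null and negative pairings in wild type. Its signals were 7.42 and 7.43 after glucose and 6.94 and 7.21 at 3 days in stb3-null, against 6.18 and 6.43 and 7.55 and 7.42 in wild type. It fell by 1.18 in wild type (adjusted p = 9.38e-04) and changed by 0.35 in stb3-null (adjusted p = 0.18), an interaction of 1.53 (adjusted p = 0.507). In all, 58 genes were up in all 4 stb3-null pairings and down in all 4 wild-type pairings (1.09% of genes tested), and 15 the reverse (0.281%).

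The further lists given in this paragraph had medians between -0.28 and 0.20. Among regulators of ribosome biogenesis the median was 0.03 over 30 genes, with UTP22, shared between the processome and a regulator complex, at -0.99 (its 6 probe sets gave -0.99 to -0.14, with a mean of -0.55) and SDS3, a subunit of the Sin3 histone deacetylase complex, at 0.68. Nuclear pore and karyopherin genes had -0.28 over 50 genes. At an unadjusted p below 0.05, 4 of the 50 were lower and 0 higher, against 4.38% and 2.55% of all genes. The importin SXM1 gave -0.86 and the pore protein NUP85 -0.98. The other 4 probe sets of NUP85 gave values between -0.52 and 0.37, and the mean of all 5 gave -0.39. RNA exosome and decay genes had -0.13 over 44, with the exosome subunit SKI6 at -1.07 and RAI1, a partner of a nuclear exonuclease, at -1.22 (-1.87 without both wild-type A arrays, -0.57 without both B arrays). Proteasome genes had 0.20 over 38, and mitochondrial ribosomal proteins 0.17 over 74, with MRPL51 at 0.77. For the phosphate regulon the median was -0.18 over 27 genes, with the acid phosphatase PHO3 at -1.31 and PHM7 at 0.93 (1.45 without both wild-type A arrays, 0.41 without both B arrays), and for glycolysis it was -0.21 over 22.

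A list of 28 strong glucose responders was chosen with earlier results of these data known. At an unadjusted p below 0.05, 7 of them were lower and 2 higher, against 4.38% and 2.55% of all genes. Interactions in that list ran from -1.94 to 1.42. Some strong responders differed little between strains and others differed more. STD1, a regulator of glucose signalling, had signals of 9.59 and 9.75 after glucose and 6.98 and 6.94 at 3 days in stb3-null, against 9.83 and 9.48 and 6.91 and 6.83 in wild type. It rose in both strains by more than 2.7, and the interaction was -0.07 with a 95% interval of -0.70 to 0.55. The uncharacterised gene YMR206W fell by more than 3 in both strains, with an interaction of -0.14 (95% interval -0.78 to 0.51). AAH1, adenine deaminase, rose by 4.81 in stb3-null and 5.50 in wild type, an interaction of -0.69 (unadjusted p = 0.0455, adjusted p = 0.713). The methionine and cysteine genes SAM1 and CYS3 gave -1.26 and -1.57, which were -2.46 and -2.93 without both wild-type A arrays and -0.07 and -0.21 without both wild-type B arrays.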

How the data were processed

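RNA of 8 yeast samples was hybridised to 1 Affymetrix array each. The deposited table held log2 signals per probe set, with values between 0 and 14.55, whose range gave the base of the logarithm. MAS5, the manufacturer's summary of probes, is named in the submitters' processing notes, and the sources used here do not give how the authors scaled the arrays. The values were used as deposited, with no pseudocount, and the number of arrays limits the precision.

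Groups came from the sample titles. Platform annotation and RefSeq (R64), which changed 0 symbols, named 1 gene for 6504 of 9275 probe sets. The 328 with several genes and the 2443 with none listed were left out. Where a gene had several probe sets (315 genes), the one with the highest mean stood for it. The filter was a mean unlogged signal of 10% of the arrays' trimmed mean, or 5.80 on the log2 scale.

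The model for all 5343 genes (limma 3.58.1, R 4.3.3) had 4 group means, 4 residual degrees of freedom and an empirical Bayes trend. Tests were two-sided, with Benjamini-Hochberg adjustment over all genes, and genes were called below an adjusted p of 0.05. The fit was tested on simulated data. Settings tried were other scalings, filters, pseudocounts, probe set rules, weights, a replicate block and omission of arrays.

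The genes named were STB3 and its neighbours, the 12 of smallest p in each direction with pairings apart, up to 2 per list and direction, and strong glucose responders. Genes and lists were chosen with earlier results of these data known. A planned search for promoter motifs was not run because no promoter sequence was used here.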

Additional observations from a re-analysis of the deposited data

Results flagged for a closer look

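Among the genes named, 3 had all 4 stb3-null pairings positive and all 4 wild-type pairings negative. The difference itself was tested as the interaction by limma and was not called for any of them. DFP3 had an interaction of 1.53 (adjusted p = 0.507). SDP1, for a stress-induced phosphatase of mitogen-activated kinases, had 0.995 (adjusted p = 0.644). Its signals were 8.57 and 8.50 after glucose and 8.35 and 8.0 at 3 days in stb3-null, against 8.39 and 8.22 after glucose and 8.96 and 8.92 at 3 days in wild type. CYR1, which encodes adenylate cyclase, had 0.64 (adjusted p = 0.744, and 1.17 without both wild-type A arrays), read by a suffixed probe set that other sequences may share, and its 9 probe sets gave values between -0.03 and 0.92. No group of 2 arrays allows a test for outlying samples.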

How the results depend on the processing

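The direction of the processome, large-subunit and snoRNP medians was kept under all 26 alternatives, with ranges of -1.05 to -0.61, -0.88 to -0.51 and -0.87 to -0.60. The cause of the shifts listed here was not tested. The number of called genes was 0 under every alternative but 4: between 0 and 5 with 1 array left out (5 without wild type 3 days replicate A, 1 without wild type glucose replicate A), 838 without both wild-type A arrays and 33 without both wild-type B arrays. With replicate letter as a replicate block it was 0 (smallest adjusted p = 0.125 by limma). The letters were not taken as pairs, since the correlations of A minus B between groups ran from -0.183 to 0.224. A pseudocount gave processome medians of -0.70 (10%) and -0.61 (20%) and -0.61 for snoRNP (20%), and leaving out 1 array gave -1.05 to -0.68 and -0.84 to -0.60. The gluconeogenesis list gave 0.80 and 0.07 without both wild-type A or both B arrays, and ribosomal proteins ran from -0.81 to 0.09 with 1 array left out.

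With 1 array left out, 18 of 40 list medians changed sign, and 7 of 96 gene values did. Without wild type glucose replicate B the medians of the stress response, hexose transport, proteasome and tricarboxylic acid cycle lists were -0.035, -0.05, -0.04 and -0.20. Without both wild-type B arrays the respiratory median was -0.11. With 1 array left out, the medians of glycogen, cyclin and phosphate genes ran from -0.075 to 0.845, -0.14 to 0.045 and -0.30 to 0.12. The cyclin median was 0.09 with a 40% filter, 0.02 without both wild-type A arrays and 0.09 without both stb3-null A arrays. That of DNA replication was 0.035 without both stb3-null A arrays, and that of the phosphate regulon 0.04 without both wild-type A arrays. With 1 array left out, the lowest and highest values were -0.005 and 0.795 for STB3, -0.38 and 0.025 for CDC37, -0.435 and 1.14 for RRP7, -0.04 and 0.615 for MRK1, -0.25 and 0.10 for STD1, -0.195 and 1.40 for HXT3 and -4.46 and 0.58 for ANS1. Without a replicate in both conditions RRP7 gave -0.265, STD1 0.06 and 0.025, and HXT3 -0.435. Of the named genes, 76 results passed that had not, only without both wild-type A arrays, both wild-type B arrays or wild type 3 days replicate A.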

Other observations

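ANS1, a gene with strong glucose responses, was read far apart by the wild-type replicates after glucose. Its signals were 6.81 and 6.90 after glucose and 3.98 and 4.34 at 3 days in stb3-null, against 7.08 and 12.12 after glucose and 4.32 and 5.61 at 3 days in wild type. All 4 of its 3-day signals lay below the filter level of 5.80, so its responses are measured from dim values. The interaction was -1.94 with a 95% interval of -5.77 to 1.89, and it was -3.81 without both wild-type A arrays and -0.07 without both wild-type B arrays.

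Genes of lipid synthesis, folding and nitrogen use held single members with larger values inside lists near 0. INO1, for inositol synthesis, gave -1.28 (-0.72 without wild type glucose replicate A) and OLE1, the fatty acid desaturase, 0.96 (0.61 without both wild-type B arrays). ZUO1, a ribosome-associated chaperone, gave -0.97 (-0.57 without both wild-type B arrays). DAL80, a repressor of nitrogen genes, gave 1.53 (1.01 without both wild-type B arrays), with signals of 8.95 and 7.11 after glucose and 6.49 and 6.58 at 3 days in stb3-null, against 7.17 and 7.28 after glucose and 6.69 and 7.84 at 3 days in wild type. The stb3-null glucose A array was the high one. The DAL80 interaction was 0.615 without that array and 2.455 without stb3-null glucose replicate B. MAE1, the mitochondrial malic enzyme, rose by 2.42 in stb3-null and by 3.19 in wild type, an interaction of -0.76 (adjusted p = 0.713 by limma).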
